A study of Mus musculus with 12 samples.

Results

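The minichromosome maintenance genes Mcm2 to Mcm10 were followed across 12 mouse liver libraries, in 2 models where a growth regulator is switched on in the liver. The 9 genes were taken by symbol from count tables that list 48576 symbols; all 9 were among the 17964 genes with enough counts to be tested. The group was selected on measured values of these libraries: in livers with induced YAP, Mcm10 had lain lower than in controls while the genes of the replicative helicase tended to lie higher. Their values in the YAP comparisons are therefore given as a description without a test, and the comparison of MYC livers with MYC controls, which the choice did not use, carries the tests.

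Mcm2, Mcm3, Mcm4, Mcm5, Mcm6 and Mcm7 encode the subunits of a ring-shaped motor that is loaded on DNA at replication origins and unwinds it at the fork. Mcm8 and Mcm9 encode relatives that pair with each other and act mainly in repair by homologous recombination. Mcm10 encodes an unrelated protein despite its name: it binds the loaded ring and helps to start unwinding. Most hepatocytes of an adult liver are not dividing, and transcription of the ring subunits is a familiar companion of entry into the cell cycle.

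The YAP livers came from mice of the genotype Col-TRE-YAPS127A; Rosa26-LSL-rtTA, in which a mutant YAP is driven by a doxycycline-dependent promoter. Cre was delivered with AAV-TBG-Cre at 8 to 10 weeks of age, and its TBG promoter is active in hepatocytes, so that rtTA is limited to the cells reached by the virus. YAPS127A was then induced for 2 weeks (n = 2) or 4 weeks (n = 3), and YAP controls (n = 2) carried the same alleles without induction. MYC livers (n = 3) came from LAP-tTA; TRE-MYC mice, in which a liver-active promoter drives tTA; pregnant mothers stopped receiving doxycycline near embryonic day 8, and livers were collected when the offspring were 4 weeks old. MYC controls (n = 2) had the LAP-tTA allele without TRE-MYC, under the same timing of doxycycline. The models differ in age, driver and length of induction, so each was compared with its own controls. The label for cell type reads hepatocytes, but the RNA was extracted from total liver.

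Libraries held 12511170 to 17690798 counts. Levels are CPM (counts scaled to a common library size, after TMM normalization), and every error of a group mean is an SD over libraries. All 6 hepatocyte markers were detected in each library, with summed levels of 20300 to 86700 CPM. Skeletal muscle markers summed to 449 and 493 CPM in the 2-week YAP libraries and to at most 20 CPM elsewhere. Xist and Y-linked counts gave a male pattern in both YAP controls, in 2-week YAP replicate 1 and in all 5 libraries of the MYC model; 2-week YAP replicate 2 and all 3 4-week YAP libraries had a female pattern. The 4-week YAP effect and sex therefore cannot be told apart. Neither target gene was called changed at its own driver's contrast: mouse Yap1 had 83.8 ± 3.76 CPM in YAP controls and 73.4 ± 10.8 at 4 weeks, and mouse Myc had 11.1 ± 6.20 CPM in MYC controls and 25.6 ± 5.06 in MYC livers. Whether reads of the transgenes were counted under these symbols is not given in the sources used here, so they do not check the labels.

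The start regions of 4 genes are shown, Mcm10 beside some of the ring genes, all of which moved the other way. The ring genes shown, Mcm3, Mcm5 and Mcm6, each hold a form of the E2F site described below. Mcm5 and Mcm6 hold only TTTNGCGC, the form added after the windows had been seen. Mcm2, a ring gene not shown, holds neither form, as Mcm10 does not. Sequences are from RefSeq on GRCm38.p6, 170 bases before to 30 after the annotated start, read 5′ to 3′ on the gene's strand. Capitals mark the letters CCAAT, bound by NF-Y, and either of 2 forms of the site bound by E2F factors, GCGGGAA and TTTNGCGC, on either strand. They lie at chr1:20820283-20820482, minus strand for Mcm3, chr8:75109339-75109538, plus strand for Mcm5, chr1:128359676-128359875, minus strand for Mcm6 and chr2:5012762-5012961, minus strand for Mcm10.
Mcm3: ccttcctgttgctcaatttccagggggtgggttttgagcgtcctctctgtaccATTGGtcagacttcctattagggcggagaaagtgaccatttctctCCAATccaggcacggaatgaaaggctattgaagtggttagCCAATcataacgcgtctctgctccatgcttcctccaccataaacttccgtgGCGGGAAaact
Mcm5: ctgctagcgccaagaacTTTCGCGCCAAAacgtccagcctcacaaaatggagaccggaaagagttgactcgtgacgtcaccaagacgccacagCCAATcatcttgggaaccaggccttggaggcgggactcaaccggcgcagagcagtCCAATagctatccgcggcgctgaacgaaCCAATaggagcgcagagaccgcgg
Mcm6: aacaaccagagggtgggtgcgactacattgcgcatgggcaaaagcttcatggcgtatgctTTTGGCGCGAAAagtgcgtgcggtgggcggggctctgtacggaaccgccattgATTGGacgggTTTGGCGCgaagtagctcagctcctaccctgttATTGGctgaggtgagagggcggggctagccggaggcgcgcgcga
Mcm10: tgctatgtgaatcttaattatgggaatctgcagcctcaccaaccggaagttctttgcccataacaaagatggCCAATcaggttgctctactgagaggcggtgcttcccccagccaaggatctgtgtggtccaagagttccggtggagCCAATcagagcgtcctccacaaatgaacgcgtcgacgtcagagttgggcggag

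Over the full windows, from 250 bases before to 50 after the start, 8 of the 9 genes had an entry, Mcm7 with 2 windows; Mcm4 had none. The CCAAT letters stood in every one of these windows, against 37.4% of 32851 promoter windows in the genome; Mcm10 held 3 copies. GCGGGAA stood in the windows of Mcm3 and Mcm7, against 4.6% of all windows. TTTNGCGC, a form added after the windows had been seen, stood in those of Mcm3, Mcm5, Mcm6, Mcm8 and, in 1 of 2, Mcm7, against 1.38%; the copies that overlap each other in Mcm5 and Mcm6 are read on opposite strands. Windows of Mcm2, Mcm9 and Mcm10 held neither form. The Mcm10 window ends within a possible copy, since its last 7 bases match the first 7 letters of TTTNGCGC. Among the other letters searched on both strands, the E-box CACGTG stood in Mcm8 alone (7.15% of all windows), GGAATG, bound by TEAD factors, in Mcm3 alone (14.7%), and TTCNNNGAA, bound by STAT factors, in Mcm5 alone (8.3%). These are matches of letters, and binding was not measured here. Since TTTNGCGC was added with the windows known, its presence in them beside the share of all windows is a description only.

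In MYC livers all 6 ring genes rose and Mcm10 fell. Of the 9 genes, 6 were called higher and 1 lower, where 9.76% of tested genes were called higher and 8.56% lower (18.3% in either direction; edgeR's quasi-likelihood test, Benjamini-Hochberg adjusted p under 0.05). The ring genes rose by 1.64 to 2.93 on the log2 scale, with a median of 2.35 against 0.02 over all tested genes. Mcm8 and Mcm9 were not called.

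Mcm2, the largest rise among them, had 44.7, 123 and 61.4 CPM in MYC replicates 1 to 3 and 7.25 and 12.7 CPM in the controls. Its log2 fold change was 2.93 ± 0.60 (SE; adjusted p = 0.0102, edgeR). Every MYC library lay above both controls, and replicate 2 was the highest; 53.0% of tested genes had no overlap between these groups, in either direction.
Mcm6 had 41.6, 107 and 45.6 CPM in MYC livers against 6.81 and 16.5 CPM, a log2 fold change of 2.47 ± 0.51 (adjusted p = 0.0106, edgeR). Mcm5 had 38.6, 83.2 and 36.3 CPM against 5.04 and 12.7 CPM, a log2 fold change of 2.56 ± 0.72 (adjusted p = 0.0362, edgeR). In both genes the highest value again belonged to MYC replicate 2 and the lowest to MYC control replicate 1, without overlap of the groups.
Mcm4 had 60.9, 133 and 57.7 CPM against 10.3 and 25.6 CPM, and changed by 2.22 ± 0.58 (adjusted p = 0.0270, edgeR). Mcm3 had 35.9, 89.7 and 35.9 CPM against 7.51 and 16.9 CPM, and changed by 2.13 ± 0.60 (adjusted p = 0.0347, edgeR). Mcm7 had 43.4, 103 and 44.2 CPM against 16.7 and 24.0 CPM, and changed by 1.64 ± 0.44 (adjusted p = 0.0269, edgeR). Mcm7 had the smallest change of the 6 and the highest control level, and its groups did not overlap either.

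Mcm10 had 15.9, 29.2 and 14.5 CPM in MYC livers against 84.7 and 58.7 CPM in MYC controls. They rest on up to 417 reads per MYC library and on 958 and 753 reads in the controls. The log2 fold change was -1.85 ± 0.35 (adjusted p = 0.00645, edgeR), and 784 of 17964 tested genes had a lower one. The libraries of the groups did not overlap, and replicate 2, highest of the MYC livers in each ring gene, was highest in Mcm10 too. In a bulk sample, fewer cells that hold a transcript and less of it per cell cannot be told apart.

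The relatives that act in recombination repair showed no call. Mcm8 had 3.45, 4.49 and 2.38 CPM in MYC livers and 1.94 and 3.51 CPM in controls, a log2 difference of 0.33 ± 0.51 (adjusted p = 0.709, edgeR) with overlapping groups. Mcm8 had the fewest reads of the 9, 22 to 64 per library of this model. Mcm9 had 8.16, 9.60 and 7.49 CPM against 8.22 and 7.80 CPM, a log2 difference of 0.07 ± 0.21 (adjusted p = 0.859, edgeR). A change in either gene of about the size of its SE, or even well above it, could not be told from 0 here.

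The count of 7 depended on single libraries. Without MYC control replicate 1 no member was called, without MYC control replicate 2 there were 2 and without MYC replicate 2 there were 3; a fit of the MYC model alone gave 3, and a fit without the filter on low counts gave 3. Mcm10 was called in 11 of 12 alternatives, the exception being the fit without MYC control replicate 1 (adjusted p = 0.0723, edgeR). Mcm2 and Mcm6 were called in 10 of 12, and the other ring genes in 6 or 7 of 12.

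**Figure D1:**
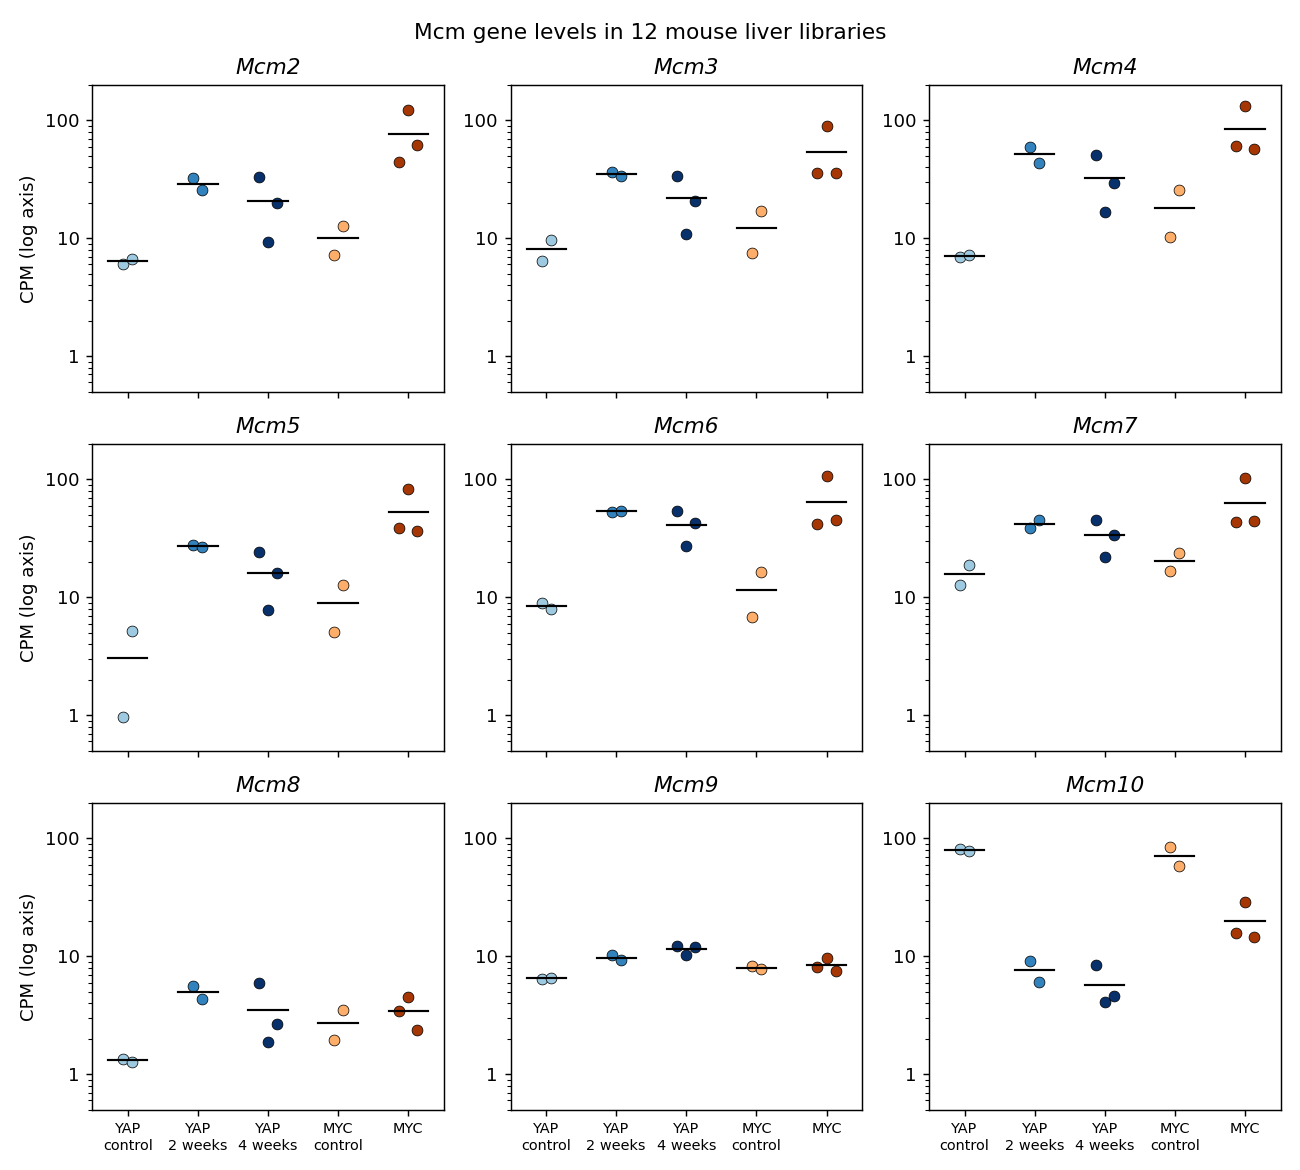
Level of each Mcm gene in CPM (log axis) in the 12 libraries, by group; each point is a library and each bar a group mean. Mcm2 to Mcm7 are highest in MYC livers and lowest in YAP controls, while Mcm10 runs from 79.9 CPM in YAP controls to 5.71 CPM at 4 weeks of YAP.

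In YAP livers the same opposition of Mcm10 and the ring was the reason the genes were chosen. Mcm10 had 81.6 and 78.1 CPM in YAP controls, 9.21 and 6.04 CPM after 2 weeks, and 8.38, 4.13 and 4.62 CPM after 4 weeks. Its log2 fold change was -3.39 ± 0.43 at 2 weeks and -3.81 ± 0.38 at 4 weeks, and the former is 10.5-fold lower. The induced libraries lay far below the controls, with 72 to 132 reads each. The 2-week library with the male pattern, replicate 1, was the higher of its pair at 9.21 CPM, and the fit without replicate 2 put the 2-week difference at -3.11.

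Ring genes lay between 1.41 (Mcm7) and 3.15 (Mcm5) log2 above controls at 2 weeks, and between 1.10 (Mcm7) and 2.39 (Mcm5) at 4 weeks. Mcm5 rested on few reads in controls, 10 and 49, or 0.966 and 5.20 CPM, against 27.8 and 26.5 CPM at 2 weeks and 24.2, 7.80 and 16.0 CPM at 4 weeks. Mcm6 had 8.89 and 7.96 CPM in controls, 53.1 and 54.1 CPM at 2 weeks, and 53.9, 27.4 and 42.9 CPM at 4 weeks. In both genes the 2-week libraries lay close to each other and the 4-week libraries spread widely.
Mcm4 had 6.96 and 7.21 CPM in controls, 59.4 and 43.8 CPM at 2 weeks, and 51.3, 16.7 and 29.5 CPM at 4 weeks. Mcm2 had 6.09 and 6.68 CPM, then 32.5 and 25.5 CPM, then 33.3, 9.23 and 19.9 CPM. In both, 4-week replicate 1 was the highest of its group and replicate 2 the lowest, as it was in all 6 ring genes.
Mcm3 had 6.38 and 9.76 CPM in controls, 36.3 and 34.0 CPM at 2 weeks, and 34.0, 10.8 and 20.7 CPM at 4 weeks. Mcm7 had 12.8 and 18.7 CPM, then 38.8 and 45.1 CPM, then 45.7, 22.1 and 33.6 CPM. Both had their lowest induced value, in replicate 2, close above the higher control.

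Mcm8 had 1.35 and 1.27 CPM in YAP controls, 5.60 and 4.36 CPM at 2 weeks, and 5.97, 1.89 and 2.67 CPM at 4 weeks. Control libraries held only 12 and 14 Mcm8 reads. Mcm9 had 6.47 and 6.58 CPM, then 10.2 and 9.27 CPM, then 12.2, 10.3 and 11.9 CPM. Mcm9 and Mcm8 thus lay higher with YAP by 0.81 ± 0.22 and 1.41 ± 0.56 log2 at 4 weeks.
At 2 weeks, 7 members were past the threshold as higher and 1 as lower, where 15.1% of tested genes were higher and 12.7% lower (27.8% in either direction); Mcm9 was the one not past it. At 4 weeks, 5 were past it as higher (Mcm2, Mcm4, Mcm5, Mcm6 and Mcm9) and 1 as lower, where 18.1% of tested genes were higher and 15.7% lower (33.8% in either direction). The libraries of all 9 members did not overlap with the controls at either time, where 66.6% of tested genes did not overlap at 2 weeks and 59.9% at 4 weeks. Since these contrasts chose the genes, the counts are a description only. Leaving out any 1 library kept 2 or 3 members past the threshold at 2 weeks; at 4 weeks 1 was left without YAP control replicate 1 and 2 without YAP control replicate 2.

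**Figure D2:**
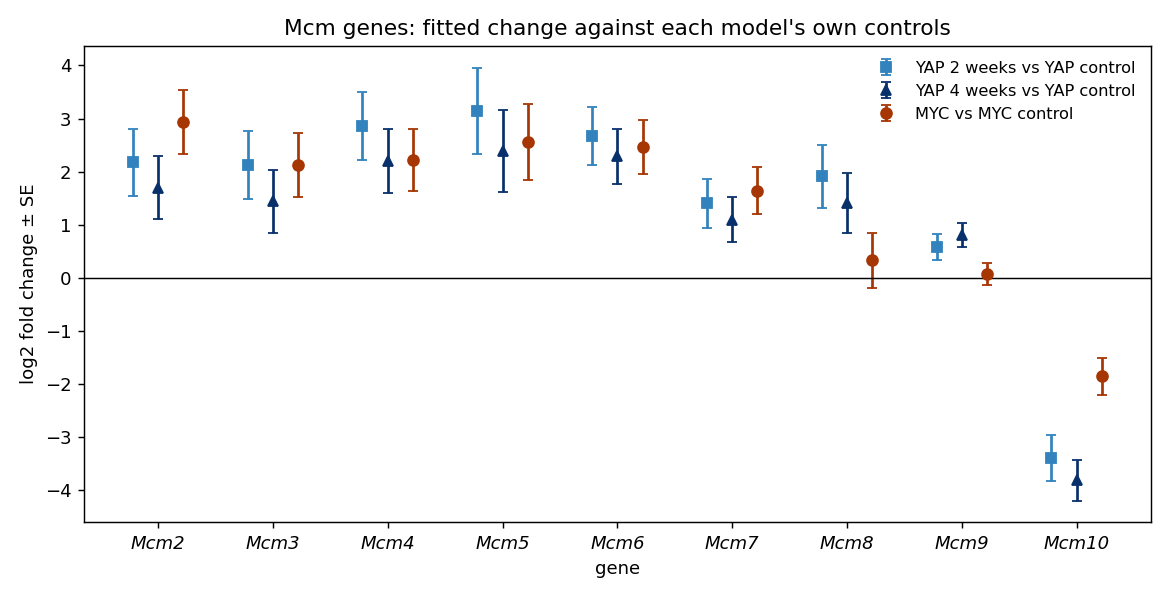
Fitted log2 fold change of each Mcm gene against its model's own controls, with bars of 1 SE, for 2 weeks of YAP, 4 weeks of YAP and MYC. Mcm10 is the one member below 0 in all 3, at -3.39, -3.81 and -1.85.

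Between 2 and 4 weeks of YAP no member was called, where 0.0612% of tested genes were called (edgeR); at an unadjusted p under 0.05 the count was 0 of 9, and DESeq2 called 0. Both groups entered the choice of the genes. The log2 differences of 4 from 2 weeks ran from -0.77 ± 0.64 (Mcm5) to 0.24 ± 0.21 (Mcm9), and that of Mcm10 was -0.42 ± 0.38. Point estimates of 8 members were below 0.

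Subtracting the log2 change of 4-week YAP from that of MYC gives a contrast that contains the one behind the choice. On this scale Mcm10 stood at 1.95 ± 0.52, a smaller drop with MYC than with YAP, and was the one member past the threshold, where 7.48% of tested genes were; it was past it in 6 of 17 alternatives. The ring genes stood between 0.03 ± 0.80 (Mcm4) and 1.23 ± 0.79 (Mcm2). Mcm8 and Mcm9 stood at -1.08 ± 0.75 and -0.74 ± 0.30.

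Ordering the 5 groups by mean gave the same sequence for each ring gene: MYC livers, 2-week YAP, 4-week YAP, MYC controls and YAP controls. Neighbours in that order often overlapped. MYC livers and 2-week YAP were free of overlap in Mcm2 and Mcm5, 2-week and 4-week YAP in Mcm5, 4-week YAP and MYC controls in Mcm6, and the control groups in Mcm2 and Mcm4. Of all tested genes, 20.9% had no overlap between the YAP times. That share was not counted for the other pairs just named, so their lack of overlap is a description only. Mcm10 had the controls on top, with YAP controls (79.9 ± 2.52 CPM) before MYC controls (71.7 ± 18.4). MYC livers (19.9 ± 8.15), 2-week YAP (7.62 ± 2.24) and 4-week YAP (5.71 ± 2.33) followed, in the order they had in the ring genes. The controls of Mcm10 overlapped each other and so did its YAP times, while MYC livers stood apart from both sides. Between MYC livers and MYC controls 53.0% of tested genes had no overlap. Between MYC livers and 2-week YAP that share was not counted. Mcm9 was highest at 4 weeks of YAP (11.5 ± 1.01 CPM) and Mcm8 at 2 weeks (4.98 ± 0.872).

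Levels of different genes were compared per kilobase of the longest principal coding transcript in GENCODE vM21. Per length, Mcm10 was the most abundant member in both control groups, with 16.4 ± 0.517 CPM per kb in YAP controls and 14.7 ± 3.77 in MYC controls. Mcm7, the next, had 5.32 ± 1.39 and 6.87 ± 1.75. At 4 weeks of YAP Mcm6 led with 14.2 ± 4.59 CPM per kb, and Mcm10, at 1.17 ± 0.479, was eighth of the 9 ahead of Mcm8 (1.10 ± 0.681).
The ratio of Mcm10 to the mean of the ring genes, per length, was 7.44 and 5.41 in YAP controls and 6.16 and 2.13 in MYC controls. It was 0.146 and 0.102 after 2 weeks of YAP, 0.135, 0.169 and 0.110 after 4 weeks, and 0.238, 0.181 and 0.204 in MYC livers. Each induced library thus had less Mcm10 message than the mean ring gene, and each control library had more. Summed over the 6 ring genes, CPM per kb was above Mcm10 in YAP control replicate 2 (17.8 against 16.0) and MYC control replicate 2 (34.0 against 12.1). It was below Mcm10 in YAP control replicate 1 (13.5 against 16.8) and MYC control replicate 1 (17.0 against 17.4). With the length of all annotated exons in place of 1 transcript, Mcm10 again ranked first in both control groups and last at both YAP times. With it Mcm4 led at both YAP times, with 9.05 against 8.87 CPM per kb for Mcm6 at 4 weeks, and it, not Mcm7, followed Mcm10 in MYC controls. Among ring genes Mcm2 fell from second to sixth in MYC livers, since its annotated exons are far longer than its main transcript.

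**Figure D3:**
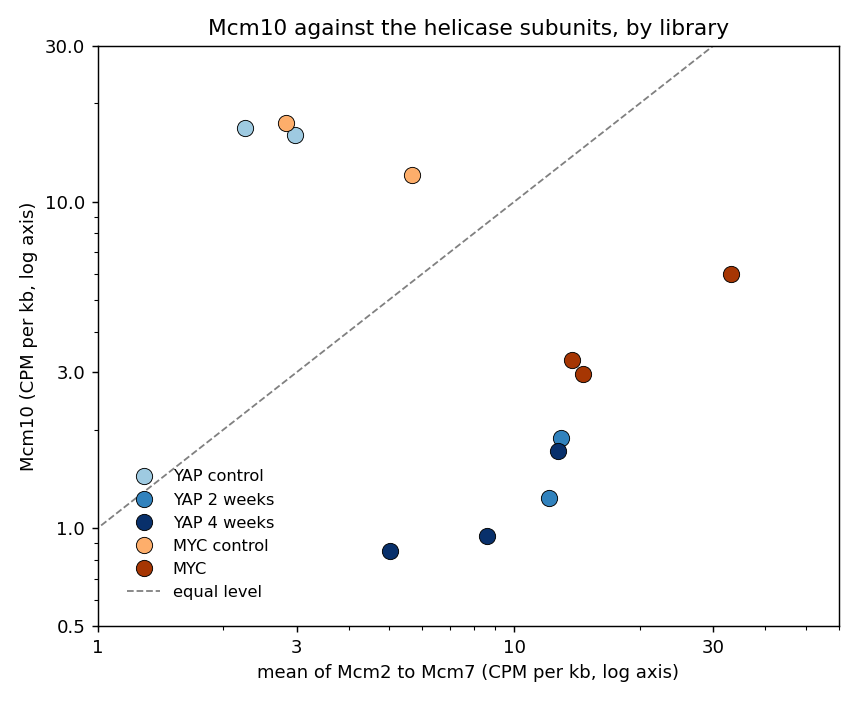
Mcm10 against the mean of Mcm2 to Mcm7 in each library, both in CPM per kb on log axes, with a dashed line of equal level. The 4 control libraries lie above the line and the 8 induced libraries below it.

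The ring holds its subunits in equal number, and their transcripts were most alike in level in MYC livers. Shares of the summed CPM per kb of Mcm2 to Mcm7 ran from 12.3% to 20.8% there, and the largest share was 1.49 to 1.69 times the smallest. In MYC controls this factor was 3.79 and 2.14, and in YAP controls 15.2 and 4.10, the former from the 10 Mcm5 reads. It was 2.22 and 2.46 at 2 weeks of YAP and 2.59, 4.08 and 3.13 at 4 weeks.
Mcm7 took the largest share in each control library, 23.8% to 35.4%, and Mcm6 the largest in each induced YAP library, 23.5% to 31.2%. Mcm5 took the smallest share in every library except 2-week YAP replicate 2, where Mcm2 did, and in MYC control replicate 2 the shares of Mcm5 and Mcm2 rounded to the same value. Within MYC livers Mcm4 led in replicates 1 and 2 and Mcm2 in replicate 3. These shares depend on the transcript lengths used.

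**Figure D4:**
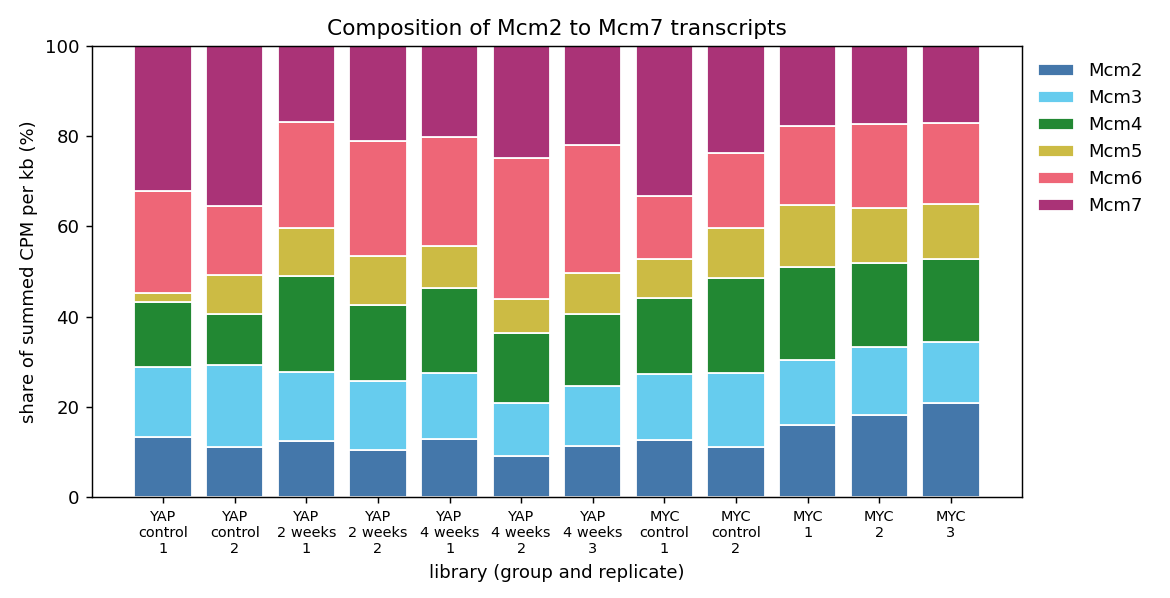
Share of each of Mcm2 to Mcm7 in their summed CPM per kb (percent), by library. Mcm7 is the largest segment in the 4 control libraries, at 23.8% to 35.4%, and the segments are most alike in the 3 MYC libraries.

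Over the 12 libraries, each ring gene had a Pearson correlation of 0.93 to 0.99 with the mean of the others on log2 CPM. Mcm8 had 0.80 and Mcm9 0.51 with the mean of the 6. Mcm10 had -0.52 with that mean. The points share the 5 groups, so these values mostly restate the group means. Within groups, MYC replicate 2 was 0.82 log2 above its group's mean in the ring average and 0.63 above in Mcm10, and 4-week YAP replicate 1 was 0.69 and 0.61 above. In MYC controls replicate 2 was 0.53 above in the ring average and 0.26 below in Mcm10.

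The genes whose pattern was most like that of Mcm10, among 12708 ranked over the 12 libraries, were Srpr (Pearson's r = 0.983), Azin1 (0.983), Rtn4ip1 (0.980), Rpe (0.976), Atp6v0d1 (0.975) and Blmh (0.972). Srpr encodes a subunit of the receptor for the signal recognition particle, Azin1 an antizyme inhibitor of polyamine control, and Rpe an enzyme of the pentose phosphate pathway. Their falls were smaller in size: Srpr had 274 ± 6.14 CPM in YAP controls and 102 ± 12.4 at 4 weeks, and Azin1 166 ± 0.198 and 69.5 ± 11.2. None of them is a replication gene on the lists used here.
For the ring average the nearest were Brca1 (0.985), Mms22l (0.983), Lmnb1 (0.980), Wdhd1 (0.978), Atad2 (0.973) and Rad51ap1 (0.972). Brca1 and Rad51ap1 act in homologous recombination, and Wdhd1 links the helicase to polymerase alpha. Brca1 had 2.72 ± 1.11 CPM in YAP controls, 18.6 ± 3.56 at 2 weeks, 4.57 ± 2.58 in MYC controls and 28.6 ± 16.1 in MYC livers.

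Many other genes of DNA replication rose in MYC livers, where 9.76% of tested genes were called higher and 8.56% lower. Of 10 origin licensing genes, which bring the ring to the origin, 7 rose and 0 fell with MYC (edgeR), with a median log2 change of 1.54 against 0.02 over all tested genes. Orc1, a subunit of the origin recognition complex, rose by 3.62 ± 0.54 (adjusted p = 0.00220, edgeR) and the loader Cdc6 by 4.75 ± 0.88 (adjusted p = 0.00645, edgeR). Mcmbp, which binds ring subunits, did not pass, at 32.0 ± 2.15 CPM in controls and 37.5 ± 1.10 in MYC livers.
Of 13 genes of helicase activation, the step in which Mcm10 acts, 5 rose and 0 fell with MYC, with a median of 1.62. Ticrr, which recruits activation factors, rose by 3.95 ± 0.87 (adjusted p = 0.0122, edgeR), the kinase Cdc7 by 3.09 ± 0.72 (adjusted p = 0.0147, edgeR) and Wdhd1 by 2.83 ± 0.52 (adjusted p = 0.00519, edgeR). Mcm10 is not counted in that list, and no gene of it was called lower in MYC livers or at either YAP time.
Of 26 genes of polymerases and the fork, 15 rose and 1 fell with MYC. Lig1, the ligase that seals the lagging strand, rose from 5.72 to 40.8 CPM and the sliding clamp Pcna from 16.6 to 76.4 CPM. The gene that fell was Pold4, a small subunit of polymerase delta, named after its value was seen. Of 9 counted genes of homologous recombination 6 rose, Rad54l by 3.46 ± 0.57 (adjusted p = 0.00284, edgeR). Of 17 regulators of E2F activity and the G1/S step 7 rose, Ccne1, which encodes a cyclin of that step, by 2.83 ± 0.50 (adjusted p = 0.00397, edgeR). Of 12 mitosis genes 5 rose. These counts leaned on the same libraries as those of the ring: without MYC control replicate 1 the 6 lists in this order had 2, 0, 0, 1, 0 and 0 genes called higher, without MYC control replicate 2 they had 3, 1, 2, 1, 4 and 0, and without MYC replicate 2 they had 4, 3, 8, 3, 4 and 0.

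With YAP, licensing genes rose in 3 of 10 cases at each time and activation genes in 4 of 13 at each time (edgeR), where 15.1% of tested genes were called higher at 2 weeks and 18.1% at 4 weeks. Fork genes rose in 14 of 26 cases at 2 weeks and 9 of 26 at 4 weeks, recombination genes in 5 and 3 of 9, and G1/S regulators in 5 and 4 of 17. Mitosis genes rose in 11 of 12 cases at both times, Mki67 from 8.05 CPM in controls to 196 at 2 weeks and 172 at 4 weeks. No gene of the 6 lists was called lower at either YAP time. With single libraries left out, the licensing genes called higher numbered 1 to 2 at 2 weeks and 1 to 3 at 4 weeks, the recombination genes 1 to 3 and 1 to 6, and the activation genes and G1/S regulators each 1 to 3 and 1 to 5. The fork genes called higher numbered 4 to 8 at 2 weeks and 3 to 11 at 4 weeks and the mitosis genes 3 to 11 at both times. Leaving out YAP control replicate 2 gave the lowest count in each of these lists, in some together with other libraries. Both YAP contrasts share their control libraries.

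Levels of other cell types and of sex-dependent genes moved with the groups too. The 17 male-biased liver genes summed to 25600 to 25900 CPM in YAP controls, 848 to 1720 at 2 weeks, 456 to 2060 at 4 weeks, 4300 to 4780 in MYC controls and 351 to 609 in MYC livers, and each control group had 0 or 1 of them at 0 counts. With MYC, 12 of the 17 fell and 1 rose (edgeR), and 14 and 16 fell at 2 and 4 weeks of YAP; with single libraries left out 6 to 12, 10 to 16 and 16 fell. Over the 12 libraries, which share the 5 groups, Mcm10 had Pearson correlations of 0.23 to 0.93 with the 17 genes, with a median of 0.73. All 5 libraries of the MYC model had the male pattern, so the Mcm10 difference there was measured between libraries of 1 sex pattern. Its relation to the male-biased genes was not tested. Of 15 female-biased liver genes, 5 rose and 0 fell with MYC (edgeR). With YAP, 4 rose and 2 fell at 2 weeks, and 5 rose and 1 fell at 4 weeks. Of all tested genes, 9.76% were called higher and 8.56% lower with MYC. At 2 weeks of YAP these shares were 15.1% and 12.7%, and at 4 weeks 18.1% and 15.7%. The same shares belong beside the marker counts that follow. Correlations of the female-biased genes with Mcm10 ran from -0.9 (Cux2 and Prom1) to 0.59 (Cyp3a41a), and their relation to it was not tested either.
Of 6 hepatocyte markers 4 fell with MYC, and their sum ran from 20300 to 40000 CPM in MYC livers against 84200 to 86700 in controls. With 1 library left out, 1 to 6 of them fell with MYC. With YAP, 2 of the 6 fell at 2 weeks (1 to 4 with a library left out) and 4 at 4 weeks (3 to 4). Ttr, which encodes the plasma carrier transthyretin, went from 4440 CPM in YAP controls to 821 at 2 weeks, a log2 change of -2.43 ± 0.34 (adjusted p = 0.000633, edgeR). Their sum was 52400 to 63500 CPM in YAP controls, 59200 to 73900 at 2 weeks and 26800 to 57400 at 4 weeks; it is mostly Alb, the albumin gene, with 40400 CPM in YAP controls and 54700 at 2 weeks. All 8 neutrophil markers rose with MYC, from 4.05 to 4.33 CPM summed in controls to 787 to 1540 in MYC livers, as did 5 of 8 erythroid markers (68.9 to 85.7 CPM summed in controls, 278 to 1550 in MYC livers) and 5 of 12 macrophage markers (323 to 345 against 794 to 1060). With either MYC control left out, 1 of the 8 neutrophil markers was called; over all single libraries left out, 2 to 7 erythroid and 3 to 6 macrophage markers were. Neutrophil markers rose with YAP too, 3 of 8 at 2 weeks and 6 of 8 at 4 weeks, and these counts also depended on single libraries. Their sum was 2.44 to 4.83 CPM in YAP controls, 16.6 to 200 at 2 weeks and 57.3 to 170 at 4 weeks. Macrophage markers rose in 6 of 12 cases at 4 weeks and cholangiocyte markers in 3 of 8 at 2 weeks. With YAP, 9 of 12 macrophage markers rose at 2 weeks (418 to 420 CPM summed in controls, 1740 to 2200 at 2 weeks) and 5 of 8 cholangiocyte markers at 4 weeks (150 to 159 against 504 to 3310). With a library left out these counts were 8 and 3 to 6; the 3 was reached without either YAP control. The part of these cells in the ring genes' higher levels was not tested. Both 2-week libraries held muscle RNA, and leaving them out of the fit kept the MYC count at 7.

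Positions were taken from GENCODE vM21 on GRCm38. Mcm10 lies on chromosome 2 (4989714 to 5012791, minus strand) between Ucma, which had 0 reads in every library, and Optn. Optn, which encodes an autophagy receptor, fell with MYC from 120 ± 8.61 CPM to 62.7 ± 16.2 CPM, a log2 difference of -0.93 ± 0.22 (adjusted p = 0.0142, edgeR), and by 0.77 ± 0.22 at 4 weeks of YAP (adjusted p = 0.0189, edgeR); at 2 weeks it did not pass (-0.48 ± 0.24, adjusted p = 0.158, edgeR). Mcm4, on chromosome 16 (15623897 to 15637400), starts 466 bases from Prkdc, which encodes a kinase of end joining. Prkdc was not called with MYC (log2 difference 0.31 ± 0.24, adjusted p = 0.412, edgeR). Mcm8, on chromosome 2 (132816141 to 132844197), starts 86 bases from Trmt6, which was called higher at 2 weeks of YAP (13.6 ± 1.61 to 22.4 ± 2.68 CPM, adjusted p = 0.0407, edgeR). It did not pass at 4 weeks (0.45 ± 0.22, adjusted p = 0.133) or with MYC (0.27 ± 0.22, adjusted p = 0.424, edgeR).
Mcm7, on chromosome 5 (138164583 to 138172422), overlaps Cops6 and Ap4m1 on the other strand and hosts Mir25, Mir93 and Mir106b. Cops6 fell at both YAP times, from 66.5 ± 0.386 CPM to 34.3 ± 0.117 and 32.8 ± 1.29, opposite to Mcm7. Mcm9, on chromosome 10 (53536315 to 53630439), holds Asf1a within its span. The strand setting of the counting is not given in the sources used here, so the values of Mcm7 and Mcm9 are uncertain to the extent of these overlaps. Gene-level counts also do not say which exons of Mcm10 held the reads.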

How the data were processed

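Total RNA of liver was sequenced in 12 libraries, and the authors deposited 1 table per library with unnormalized counts of reads for each gene symbol. The submitters' processing notes name the build GRCm38 (mm10), featureCounts 1.6.3, HISAT2 2.1.0, DESeq2 1.20.0 and Trim Galore 0.4.1 without their roles; annotation release, strand setting and treatment of multimapping reads are not given in the sources used here. The labels do not say whether replicates are separate animals, litters or days. Each p-value sets a difference between groups against the spread between libraries within groups, estimated over all 5 groups.

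The count model was that of edgeR 4.0.16 (R 4.3.3): filterByExpr (17964 genes), TMM, a robust quasi-likelihood fit with 1 mean per group over all 12 libraries (7 residual degrees of freedom), two-sided tests and Benjamini-Hochberg adjustment over all tested genes at 0.05. The common biological coefficient of variation was 31.5%. The script was tested on simulated data. DESeq2 1.42.0, other scalings, no filter, the compared groups alone, a replicate block and each library left out were alternatives; leaving out both 2-week YAP libraries was added after seeing the data. Correlations used log2 CPM with a prior count of 2. Libraries of a group differed by more than counting error (chi-square per degree of freedom 12.3 to 121).

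Named genes were the 9 members, the 6 genes most like Mcm10 and the 6 most like the ring average, neighbours, and of each list up to 4 by level and up to 3 by p in the MYC comparison. The members and lists were chosen with earlier results of these data known. One list gene, Hrob, was not matched to a symbol in the tables. Promoter windows came from RefSeq (GRCm38.p6).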

Additional observations from a re-analysis of the deposited data

Results flagged for a closer look

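On the log2 scale the MYC effect on Mcm10 minus its 4-week YAP effect was 1.95 ± 0.52 (SE), Mcm10 being lower than controls in all 3 MYC and all 3 4-week YAP libraries. It stood out because the value was past the threshold among all tested genes, which it also was in 6 of 17 alternatives. The contrast holds the YAP comparison by which the gene was chosen, so the value is a description and no test. The models also differ in age, and the 4-week YAP libraries have a female pattern where the MYC libraries have a male one; the part of either was not tested.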

How the results depend on the processing

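No member changed direction where it had been called. With MYC, the count of 7 called members became 3 without the filter on low counts, 3 with the compared groups alone and 4 with the replicate number as a block, and lay between 0 and 7 when single libraries were left out; it was 7 with DESeq2, with its size factors and with total-count scaling. At 2 weeks of YAP the count of 8 became 4 without the filter and 5 with the replicate block, and 2 to 3 with a library left out. At 4 weeks the count of 6 became 2 without the filter and 1 to 9 with a library left out (1 and 2 when a YAP control, replicate 1 or 2, was the one left out). The 1 member of the difference between MYC and 4-week YAP was lost (0) with total-count scaling, without the filter and with the compared groups alone. For this contrast the compared groups alone are the same fit as leaving out the 2-week libraries, so these 2 of the 17 alternatives are 1 fit. The member was also lost in some fits with a single library left out. Over all tested genes, same-numbered replicates did not deviate together (correlations of -0.032 to 0.082). That does not settle it for the members. In the MYC model the ring average deviated by -0.45 log2 in MYC and -0.53 in control replicate 1, and by 0.82 and 0.53 in replicate 2. Mcm10 deviated by -0.25 and 0.26 in replicate 1. For YAP, replicate 1 had ring deviations of -0.29 (controls), 0.06 (2 weeks) and 0.69 (4 weeks). In leave-outs that kept 1 control, that library was assumed to vary like the others. The cause of these shifts was not tested.

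Total-count scaling moved the median log2 change of all genes to 0.43 (MYC), 0.64 (2 weeks) and 0.91 (4 weeks), and the split of called genes from 1754 higher and 1537 lower to 3277 and 743 with MYC, from 2716 and 2277 to 5228 and 979 at 2 weeks, and from 3253 and 2820 to 7863 and 897 at 4 weeks. Under it Mcm10 stayed lower, at -1.42, -2.88 and -3.10. Mcm5 and Mcm8 in YAP controls rest on 10 to 49 reads.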

Other observations

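Mcmdc2, an MCM domain gene with a known part in meiotic recombination and not among the 9 members, had 1 read at most in each YAP control (0.0483 ± 0.0683 CPM) and 1.07 ± 0.514 CPM at 2 weeks and 2.04 ± 0.767 at 4 weeks of YAP (adjusted p = 0.00851 and 0.00164, edgeR's quasi-likelihood test). In the MYC model it had 1.98 ± 0.176 CPM in controls and 5.92 ± 1.90 in MYC livers and did not pass the threshold (adjusted p = 0.0589, edgeR). It was singled out after its values had been seen. Fam184a, the gene next to Mcm9, went from 3.27 ± 0.571 CPM in YAP controls to 0.185 ± 0.161 at 2 weeks (adjusted p = 0.0194, edgeR), while Mcm9 lay higher.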
